A study of Mus musculus with 6 samples.

Results

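The 10 genes described here are transcription factors that read small molecules in the liver: the fatty acid receptors Ppara, Ppard and Pparg, their shared partner Rxra, the oxysterol receptor Nr1h3 (LXR alpha), the xenobiotic sensors Nr1i2 (PXR), Nr1i3 (CAR) and Ahr, the thyroid hormone receptor Thrb and the orphan receptor Esrra (ERR alpha). They were taken by gene symbol from a list of names, and each symbol had 1 row in a table of 30236 rows. Sequenced RNA came from 6 hepatic tumors of male C57BL/6 animals, 3 WT and 3 Top1mt-KO (genotype Top1mt -/-). Top1mt encodes the mitochondrial type IB topoisomerase, the knockout line was kept by heterozygous breeding, and male littermates were treated. Every mouse, WT included, received diethylnitrosamine, a DNA-alkylating carcinogen, at postnatal day 14, followed from 8 weeks of age by 14 weeks of carbon tetrachloride, a hepatotoxin, and tumors were collected at 22 weeks. No untreated liver or non-tumor tissue is part of the comparison. Carbon tetrachloride is itself activated by liver enzymes, and both genotypes carried that exposure.

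Nuclear receptors bind a lipophilic ligand in one domain and DNA in another, and most of the members bind DNA as a pair with the retinoid X receptor, which Rxra encodes. Ppara drives fatty acid oxidation and ketogenesis in the fasting hepatocyte, Nr1h3 drives cholesterol export and lipogenesis, and Nr1i2 and Nr1i3 induce cytochrome P450 enzymes that clear drugs and bile acids. Ahr is no nuclear receptor but a basic helix-loop-helix PAS protein, which binds dioxin-like ligands and pairs with ARNT. The activity of these factors depends largely on ligand and on coregulators, which transcript levels do not measure.

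The values are log2 expression values as the authors deposited them, normalized between libraries. They resemble a regularized log, in which weakly expressed genes are drawn toward their mean, so that differences of such genes are understated. Depth is unknown because read totals are not kept in such values. Over 22677 genes whose mean lay above the lowest 25%, KO was set against WT by limma (variance trend on mean level, p adjusted by Benjamini-Hochberg), and all 10 members were among the genes tested. The targeted gene did not separate the labels: Top1mt read 7.71, 5.99 and 8.01 for WT replicates 1, 2 and 3, against 5.58, 6.41 and 6.32 for the KO labels. The library labelled WT replicate 2 therefore lay below 2 KO libraries, and each direction given here rests on the labels. KO replicate 1 stood apart by Gm42418, which took 17.7% of its summed linear values against at most 0.387% in the others. Hepatocyte markers were high in every library, with Alb between 20.26 and 21.12. Of 5 adipocyte markers, Adipoq, Plin1 and Lep had no value above 0.79 and reached down to -1.36, Retn had none above 1.38, and Cidec, which fatty hepatocytes also express, ran from 6.72 to 8.53.

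Before the genotypes are compared, the members are placed in order of level. To set genes side by side, the log2 value was reduced by the log2 of the exon length in kilobases (union of GENCODE M21 exons). This length counts exons of every annotated transcript, also any not made in these tumors, so the order between genes is approximate. On this per-kilobase scale Rxra had the highest mean level over the 6 libraries, 10.17, followed by Ppara at 9.92, Nr1h3 at 9.03 and Nr1i2 at 8.60. Ahr followed at 7.40, Thrb at 6.86, Nr1i3 at 6.71 and Esrra at 6.42. Pparg, which in normal hepatocytes is low, stood at 5.95 and Ppard was last at 3.61. The upper end of this order was steady: Rxra lay above Ppara in 6 of 6 libraries (mean gap 0.24 ± 0.17, SD), and Ppara above Nr1h3 in 6 of 6 (0.89 ± 0.26, SD). The middle was not, since Thrb lay above Nr1i3 in only 3 of 6 libraries (0.15 ± 0.40, SD) and Nr1i3 above Esrra in 4 of 6 (0.30 ± 0.33, SD). Ahr lay above Thrb, and Esrra above Pparg, in 5 of 6. The level of Nr1i3 is uncertain in a further way, because 74.9% of its annotated exon bases overlap those of Tomm40l on the opposite strand. The library kit keeps strand, but whether reads were counted by strand is not given in the sources used here. For Ahr, Esrra and Nr1h3 overlaps with other genes covered 1.35% to 2.07% of exon bases each, and the other members had none.

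**Figure D1:**
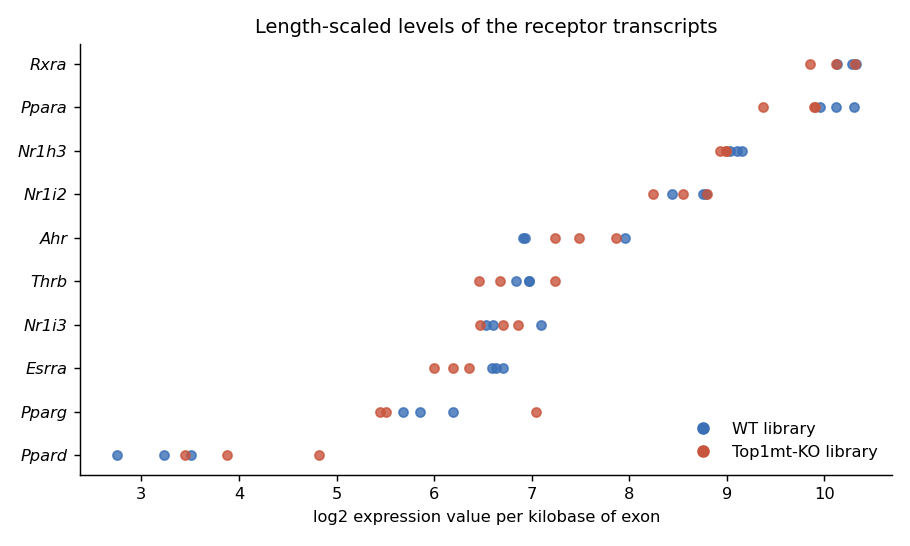
Level of each receptor transcript per kilobase of exon (x axis, log2 expression value minus log2 of exon kilobases) in the 3 WT (blue) and 3 Top1mt-KO (red) libraries, 1 point per library. Rxra and Ppara head the order at means of 10.17 and 9.92 and Ppard closes it at 3.61, while Thrb, Nr1i3 and Esrra interleave.

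The question put to these tumors was whether loss of Top1mt goes with another level of the receptors. Of the 10 members, 3 were lower in KO with groups that did not overlap, Esrra, Ppara and Nr1h3, and 0 were higher without overlap. Over all genes tested 4.33% were lower without overlap and 3.95% higher, 8.28% in all. The members were chosen with earlier results of these data known, so setting their count beside these shares is no test. The differences were small, with KO levels at 0.727, 0.753 and 0.914 times the WT level for Esrra, Ppara and Nr1h3. By the test across all genes no member passed: the adjusted limma p was under 0.05 for 0 of them, and the same held for 0 of the 22677 genes (0.0%), with every member's adjusted p at 0.999. At an unadjusted p under 0.05 there were 2 members, Esrra and Ppard, against 4.34% of all genes, 2.56% lower and 1.79% higher in KO. The median log2 fold change of the members was -0.13, beside -0.015 over all genes tested, and it was -0.054 without KO replicate 3. Because tumors were measured in bulk, fewer cells of a type and less RNA per cell cannot be told apart in any of these values.

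**Figure D2:**
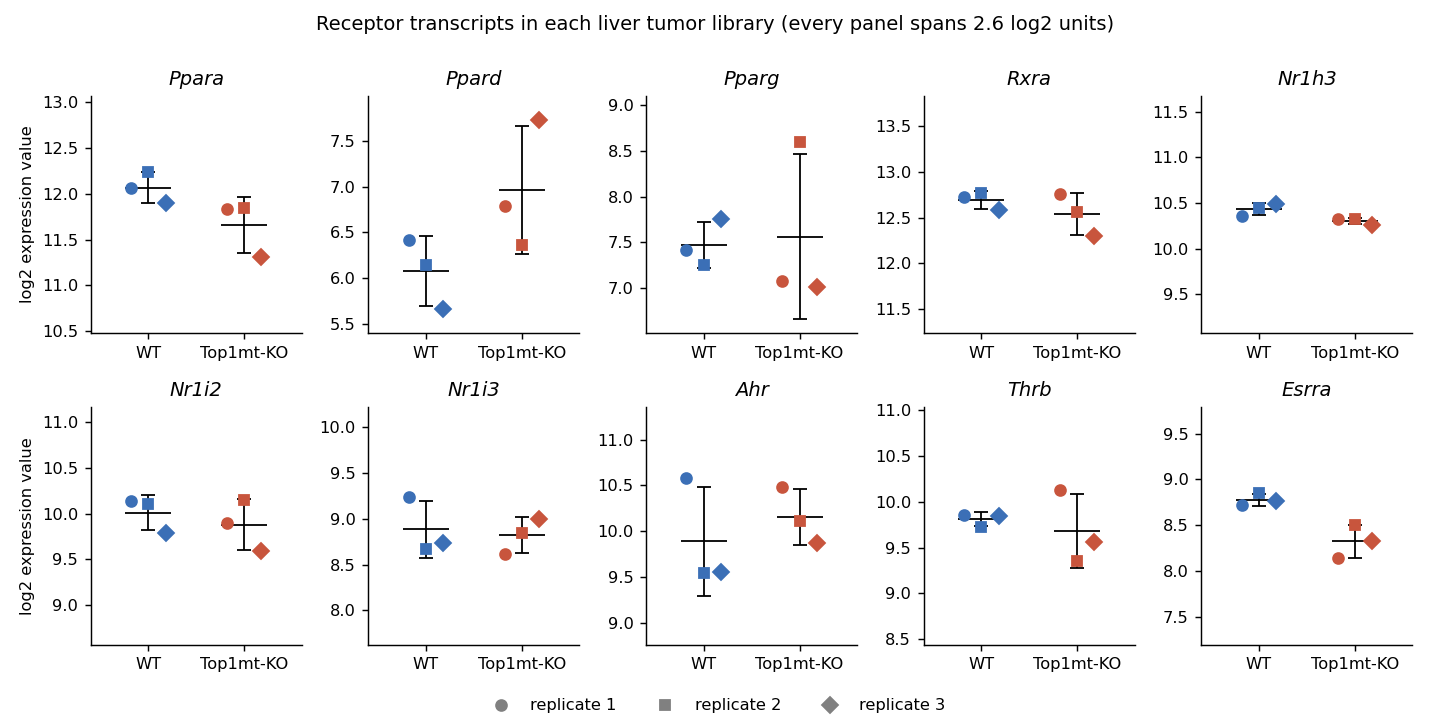
Log2 expression value (y axis, each panel spanning 2.6 units) of the 10 receptors in the WT (blue) and Top1mt-KO (red) libraries, with the marker shape giving the replicate number and black bars the mean ± SD of 3 libraries. Esrra, Ppara and Nr1h3 are the panels in which all KO points lie below all WT points, and KO replicate 3 is the highest point for Ppard and the lowest for Ppara.

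Esrra, which with its coactivator PGC-1 alpha drives genes of mitochondrial respiration, was the member with the smallest p. WT replicates 1, 2 and 3 had 8.72, 8.85 and 8.77, and the KO replicates, in the same order as throughout, had 8.14, 8.50 and 8.33. All 3 KO libraries lay below the 3 WT libraries, which were close together. WT averaged 8.78 ± 0.06 (SD, n = 3), whereas KO averaged 8.32 ± 0.18 (SD, n = 3). The log2 fold change was -0.46 (standard error 0.15, 95% interval -0.80 to -0.12, unadjusted p = 0.0148 and adjusted p = 0.999 by limma), and the exact two-sided permutation test gave p = 0.1, the least that 3 against 3 can give. With single libraries left out it ran from -0.55 to -0.37. It was -0.42 without WT replicate 2, the library whose Top1mt value went against its label, and -0.37 without KO replicate 1.

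Ppara was 12.06, 12.24 and 11.90 in WT against 11.83, 11.84 and 11.31 in KO. The gap between the lowest WT library and the highest KO library was narrow, and KO replicate 3 lay well below the rest. KO differed from WT by -0.41 (standard error 0.19, 95% interval -0.85 to 0.03, unadjusted p = 0.0651 and adjusted p = 0.999 by limma). Without KO replicate 3 the difference was -0.24.

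Ppard, the most widely expressed of the fatty acid receptors in the body, went in the other direction. It was 6.42, 6.14 and 5.66 in WT against 6.79, 6.36 and 7.73 in KO. The groups overlapped, since KO replicate 2 lay below WT replicate 1. Its log2 fold change of 0.89 was the largest among the members in size (standard error 0.38, 95% interval 0.00 to 1.78, unadjusted p = 0.0496 and adjusted p = 0.999 by limma, exact two-sided permutation test p = 0.2). It was 0.50 without KO replicate 3 and 1.19 without KO replicate 2.

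Pparg, the adipogenic receptor that rises in fatty liver, had values of 7.42, 7.25 and 7.75 in WT against 7.08, 8.60 and 7.01 in KO. KO replicate 2 was the highest of the 6 libraries and KO replicates 1 and 3 were the lowest. The difference was 0.09 on the log2 scale with an interval of -0.86 to 1.05, and it turned to -0.43 without KO replicate 2 and -0.02 without WT replicate 2. In KO replicate 2 the lipid droplet gene Cidec, a target of Pparg in fatty liver, was also at its highest, 8.53 against 6.72 to 7.90 elsewhere. Whether the one value had a part in the other was not tested.

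Rxra and Nr1h3 were the steadiest members. Rxra was 12.73, 12.77 and 12.58 in WT against 12.76, 12.56 and 12.30 in KO, and the groups overlapped (log2 fold change -0.15, 95% interval -0.56 to 0.25, -0.03 without KO replicate 3). Nr1h3 was 10.36, 10.44 and 10.49 in WT against 10.32, 10.32 and 10.26 in KO. Its 6 libraries spanned 0.24 on the log2 scale, and the lowest WT library and the highest KO libraries were closer to each other than the WT libraries among themselves. The log2 fold change was -0.13 (standard error 0.12, 95% interval -0.40 to 0.14, unadjusted p = 0.303 and adjusted p = 0.999 by limma), which bounds the KO level between 0.757 and 1.10 times that of WT. Nr1h3 is also expressed by Kupffer cells. Of 8 macrophage markers 3 were lower and 5 higher in KO by log2 fold change, with a median of 0.10. Whether these cells had a part in the Nr1h3 level was not tested.

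Among the xenobiotic sensors the groups overlapped throughout. Nr1i2 was 10.14, 10.11 and 9.79 in WT against 9.90, 10.15 and 9.59 in KO (log2 fold change -0.13, 95% interval -0.55 to 0.28), with almost no difference once KO replicate 3 was left out. Nr1i3 was 9.24, 8.67 and 8.74 in WT against 8.61, 8.85 and 9.0 in KO (log2 fold change -0.06, 95% interval -0.51 to 0.38). Here WT replicate 1 was highest and the sign turned to 0.11 without it. Ahr was 10.58, 9.54 and 9.55 in WT against 10.48, 10.11 and 9.87 in KO. WT replicate 1 and KO replicate 1 shared the high end, and WT replicate 2 was the lowest, so that the WT libraries spanned the whole range. The log2 fold change of Ahr was 0.26 (95% interval -0.43 to 0.95), 0.61 without WT replicate 1 and 0.08 without WT replicate 2.

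Thrb, the main thyroid hormone receptor of hepatocytes, was 9.86, 9.73 and 9.85 in WT against 10.13, 9.35 and 9.56 in KO. The WT libraries were close together, while the KO libraries lay on both sides of them, with KO replicate 1 the highest of all. The log2 fold change was -0.13 (95% interval -0.60 to 0.34), -0.36 without KO replicate 1 and 0.03 without KO replicate 2.

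**Figure D3:**
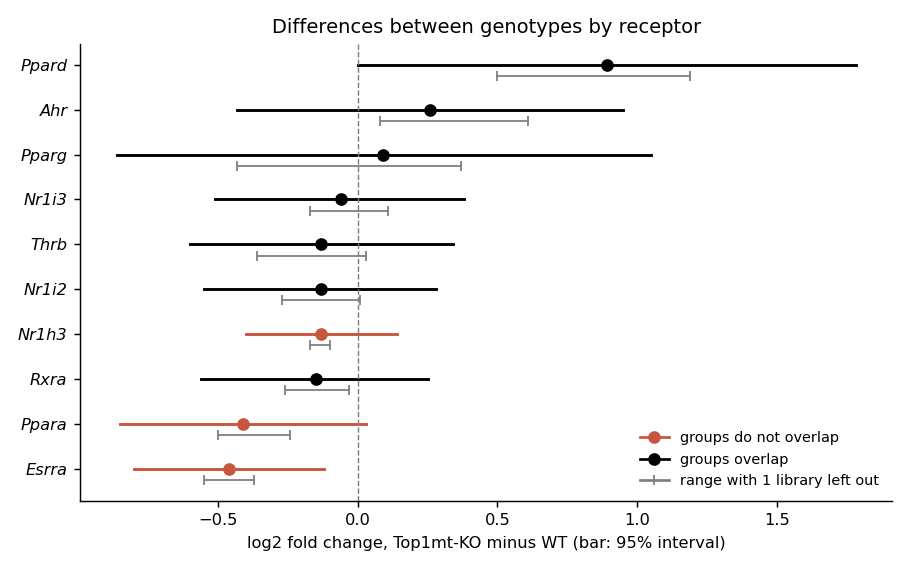
Log2 fold change of each receptor, Top1mt-KO minus WT (x axis), with its 95% interval from limma (thick bar) and, in gray beneath, the range of values with 1 library left out. Red marks the 3 receptors whose groups do not overlap; of the 10 intervals those of Esrra (-0.80 to -0.12) and, barely, Ppard (0.00 to 1.78) leave out 0.

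The precision differed between members. The standard errors ran from 0.12 for Nr1h3 to 0.41 for Pparg, with a median of 0.19, and for 8 of 10 members the 95% interval lay within 1 log2 unit on either side of 0. For Ppard and Pparg it did not, so their differences between genotypes are not bounded to within 2-fold by these libraries. Between all 6 libraries the SD was largest for Ppard (0.70), Pparg (0.59) and Ahr (0.45) and smallest for Nr1h3 (0.09). Set among the 200 tested genes nearest in mean level, the SD of Ahr stood at percentile 93.0 and that of Pparg at 88.5, whereas Nr1h3 stood at 7.5. KO replicate 3 was the lowest library for 5 of the 10 members, Ppara, Pparg, Rxra, Nr1h3 and Nr1i2, and the highest for Ppard. No other library was lowest for more than 2.

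For the 3 members with the largest SD, the genes with the most similar profile over the 6 libraries were sought by the root mean square difference of centred log2 values. For Ppard they were Klhdc7b (0.11) and Gm11084 (0.20), for Pparg 2010003K11Rik (0.08) and Mup5 (0.14), and for Ahr Fgf14 (0.09) and Gm14523 (0.09). Only 2010003K11Rik was well expressed, with a WT mean of 8.8. The rest lay near the floor, with WT means of 0.416 (Klhdc7b), 1.1 (Gm11084), 0.674 (Mup5), 1.67 (Fgf14) and -0.341 (Gm14523). With 6 libraries such likeness is common: 45 genes lay within 0.3 of Ppard, 186 of Pparg and 502 of Ahr.

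The sequences before the start sites are given for the 3 members whose groups did not overlap, to compare the short motifs next to their starts. Each is the 250 bases upstream of a RefSeq transcript start on GRCm38.p6, and for Nr1h3 the outermost of 2 starts. Capitals mark GCGTG or its complement, the core bound by Ahr with ARNT. Esrra lies on the minus strand at chr19:6921809-6922058, Ppara on the plus strand at chr15:85735526-85735775 and Nr1h3 on the minus strand at chr2:91195117-91195366.
Esrra: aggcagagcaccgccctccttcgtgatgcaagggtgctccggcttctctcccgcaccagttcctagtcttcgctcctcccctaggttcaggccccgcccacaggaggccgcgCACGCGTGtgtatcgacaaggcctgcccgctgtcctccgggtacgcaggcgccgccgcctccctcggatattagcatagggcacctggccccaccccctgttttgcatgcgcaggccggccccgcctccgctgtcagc
Ppara: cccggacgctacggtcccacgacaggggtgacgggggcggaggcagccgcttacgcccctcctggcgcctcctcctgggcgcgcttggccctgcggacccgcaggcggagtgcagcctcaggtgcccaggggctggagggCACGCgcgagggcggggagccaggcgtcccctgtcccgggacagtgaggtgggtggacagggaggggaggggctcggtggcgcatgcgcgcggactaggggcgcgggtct
Nr1h3: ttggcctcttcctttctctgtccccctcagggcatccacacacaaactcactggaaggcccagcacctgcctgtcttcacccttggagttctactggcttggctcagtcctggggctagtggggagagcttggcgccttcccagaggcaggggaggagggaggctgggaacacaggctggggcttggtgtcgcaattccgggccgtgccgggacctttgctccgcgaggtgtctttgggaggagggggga

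On both strands, GCGTG occurred 2 times before Esrra (overlapping, on opposite strands), 1 time before Ppara and 0 times before Nr1h3, and 28.2% of 32851 such windows of all genes hold it. AGGTCA, the core that nuclear receptors bind, was in none of the 3 windows and is in 14.0% of all, and TNAAGGTCA, the longer element bound by ERR proteins, was in none either and is in 1.14% of all. CACGTG, the E-box, was in none of the 3 and is in 6.02% of all. GGGCGG, the GC box, occurred 2 times before Esrra, 2 times before Ppara and 0 times before Nr1h3, against 32.7% of all windows with at least 1. The Esrra and Ppara windows were rich in CG dinucleotides, with 22 and 27, and that of Nr1h3 had 7, beside a median of 6. No letter pattern searched was thus common to the 3. Windows were found for 9 of the 10 members, Ahr being the other.

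Target genes of each receptor were then examined, as were its partners, to see whether genes under the receptors' control differed with genotype. Lists were drawn up from general knowledge of each receptor, with earlier results of these data known. Several genes stand in more than one list. Among the 168 distinct genes of these lists, of partners and of other nuclear receptors with a fitted value, the adjusted limma p was under 0.05 for 0. List by list, the counts at an unadjusted p under 0.05 are set against 2.56% lower and 1.79% higher over all genes.

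Ppara was lower in KO without overlap, but its targets were evenly divided. Of 20 target genes, 10 were lower and 10 higher by log2 fold change with a median of -0.02 (-0.251 without KO replicate 2 to 0.193 without KO replicate 1), and none had groups that did not overlap. The fatty acid hydroxylase gene Cyp4a14, among its most responsive targets, was 9.04, 8.74 and 7.78 in WT against 8.71, 7.92 and 7.68 in KO (log2 fold change -0.42, groups overlapping, -0.78 without WT replicate 3 and -0.15 without WT replicate 1). The 1 target at an unadjusted p under 0.05 was Vnn1, a pantetheinase, at 9.21, 9.75 and 9.16 in WT against 10.29, 10.23 and 9.59 in KO, groups that overlap, and a log2 fold change of 0.67 (unadjusted p = 0.0235 by limma). Slc27a1, a fatty acid transporter, had one of -0.64, and -0.19 without WT replicate 1. The 8 targets listed for Ppard had 5 lower and 3 higher and a median of -0.06 (-0.306 without KO replicate 2 to 0.068 without KO replicate 3). Angptl4, the lipoprotein lipase inhibitor, had a log2 fold change of -0.14 (0.28 without WT replicate 1). Pdk4, the kinase that shuts down pyruvate dehydrogenase, had 0.64 (0.32 without WT replicate 2 and 1.03 without WT replicate 1), and Vldlr, a lipoprotein receptor, had -1.15 (-0.76 without WT replicate 1). The groups overlapped for all 3.

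Lpl, the lipoprotein lipase that Pparg induces, stood out from the lists. It was 10.85, 10.81 and 10.68 in WT against 11.63, 11.59 and 12.19 in KO. All KO libraries lay above all WT libraries by a margin larger than the spread within WT. Lpl thus had a log2 fold change of 1.02 (standard error 0.19, unadjusted p = 0.000597 and adjusted p = 0.938 by limma), and it kept between 0.83 and 1.13 with single libraries left out. Lpl is made by macrophages and adipocytes as well as by injured liver. The mean centred log2 value of the 8 macrophage markers was -0.44, -0.37 and 0.80 in WT against -0.29, 0.02 and 0.28 in KO. The part of any cell type in the Lpl values was not tested. The targets of Pparg did not move together: of 12, Lpl included, 6 were lower and 6 higher, with a median of 0.03 (-0.089 without KO replicate 2 to 0.212 without KO replicate 1). Cidea, a lipid droplet protein, differed by 1.72 on the log2 scale though its groups overlapped, and 0.95 without KO replicate 3. Cidec had -0.24, which became 0.10 without that library.

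Of 13 LXR targets, a list that includes Nr1h3 itself, 10 were lower and 3 higher with a median of -0.13 (-0.293 without KO replicate 2), and 0 had an unadjusted p under 0.05. Abca1, the cholesterol exporter of the cell surface, was 13.82, 14.11 and 13.83 in WT against 14.21, 13.54 and 13.73 in KO (log2 fold change -0.09, and 0.05 without KO replicate 2). Abcg5 and Abcg8, which together export sterols into bile and lie side by side in the genome, had log2 fold changes of -0.84 and -0.58. For both the groups overlapped, and without KO replicate 3 the values were -0.41 and -0.23.

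The targets of CAR and PXR were spread widely over the libraries. Cyp2b10, the classical CAR target, was 5.84, 4.06 and 4.64 in WT against 3.07, 6.60 and 3.23 in KO. KO replicate 2 held the highest value and KO replicates 1 and 3 the lowest. The median range over the 6 libraries was 1.85 log2 units among the 15 CAR targets and 1.88 among the 12 PXR targets, beside ranges of 0.63 for Nr1i3 and 0.56 for Nr1i2. In the other target lists the median range ran from 0.67 (Esrra targets) to 1.55 (thyroid hormone targets). It was 1.18 among the Ahr targets. As mean centred log2 values the CAR targets stood at 0.63, -0.22 and 0.14 in WT against -0.38, 0.66 and -0.83 in KO. The PXR targets, of which Cyp2c55 is shared with the CAR list, stood at 0.59, -0.39 and 0.19 in WT against -0.40, 0.75 and -0.73 in KO. WT replicate 1 and KO replicate 2 were thus high and KO replicate 3 low for both.

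Of the CAR targets 12 were lower and 3 higher in KO, with a median of -0.19, and 3 were lower at an unadjusted p under 0.05. The median turned to 0.092 without WT replicate 1, 0.071 without KO replicate 1 and 0.016 without KO replicate 3, and was -0.644 without KO replicate 2. One of the 3 targets at an unadjusted p under 0.05 was Por, the reductase that passes electrons to all microsomal P450 enzymes. It was 12.15, 11.67 and 11.52 in WT against 10.90, 11.45 and 10.47 in KO. The groups did not overlap, but WT replicate 3 lay close to KO replicate 2. Por differed by -0.84 on the log2 scale (standard error 0.27, unadjusted p = 0.0150 and adjusted p = 0.999 by limma), -0.61 without KO replicate 3 and -1.10 without KO replicate 2. Cyp2b13, a P450 gene that is female-biased in mouse liver, ran from 6.77 to 10.67 in WT and from 6.10 to 7.68 in KO (log2 fold change -2.15, and -1.26 without WT replicate 3). It belongs to a family of near-identical genes. Only uniquely mapped reads were kept, so reads shared between such genes may be lost and its values are uncertain. The third was Cyp2c37.

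Of the PXR targets 7 were lower and 5 higher with a median of -0.36, and 0 had an unadjusted p under 0.05. The median was -0.043 without KO replicate 3, -0.175 without KO replicate 1 and -0.719 without KO replicate 2. Cyp3a11, the main inducible steroid and drug hydroxylase of mouse liver, was 14.76, 13.60 and 14.02 in WT against 13.35, 15.49 and 14.75 in KO. Both the highest and the lowest library were KO. Fmo5, a flavin monooxygenase, did not overlap between groups, at 12.41 to 12.94 in WT and 11.44 to 12.35 in KO (log2 fold change -0.59, and -0.28 without KO replicate 3). Alas1, the rate-limiting enzyme of heme synthesis, differed by -0.93 on the log2 scale (-0.56 without KO replicate 3), and its groups overlapped.

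Of 12 Ahr targets 9 were lower and 3 higher with a median of -0.17, and 0 had an unadjusted p under 0.05. The median turned to 0.042 without WT replicate 1, came near 0 (-0.006) when KO replicate 3 was left out, and reached -0.401 without WT replicate 2. Cyp1a1, the most inducible of them, was 6.68, 2.45 and 5.38 in WT against 4.30, 4.50 and 3.93 in KO. The WT libraries spanned the whole range, and the 3 KO libraries lay inside it. Xdh, xanthine dehydrogenase, was 11.96, 11.51 and 11.98 in WT against 11.50, 11.44 and 11.50 in KO (log2 fold change -0.34). The groups did not overlap, but WT replicate 2 lay almost level with KO replicates 1 and 3. Cyp1b1, a P450 enzyme of steroids and aromatic hydrocarbons, differed by -1.0 on the log2 scale (-0.48 without KO replicate 1 and -1.51 without KO replicate 2), and its groups overlapped.

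Of 11 thyroid hormone targets 5 were lower and 6 higher with a median of 0.16, which turned to -0.147 without WT replicate 1 and -0.149 without KO replicate 2. Dio1, the hepatic deiodinase that is the best known of them, was 9.79, 10.01 and 9.39 in WT against 10.23, 10.83 and 9.97 in KO. The groups overlapped at KO replicate 3 (log2 fold change 0.61, 0.37 without KO replicate 2, standard error 0.25, unadjusted p = 0.0403 and adjusted p = 0.999 by limma). Hr, a corepressor induced by the hormone, differed by 1.06 on the log2 scale, its groups overlapping, and by 0.55 without KO replicate 3. Esrra was lower in KO, yet its 14 targets had 5 lower and 9 higher, a median of 0.02 (-0.054 without KO replicate 2) and 0 at an unadjusted p under 0.05. Idh3a, a subunit of the mitochondrial isocitrate dehydrogenase, was 8.37, 8.35 and 8.40 in WT against 7.44, 8.46 and 8.26 in KO, and its log2 fold change of -0.32 shrank to -0.01 without KO replicate 1. Atp5g1, a subunit of ATP synthase, had one of 0.29, and 0.08 without KO replicate 1.

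**Figure D4:**
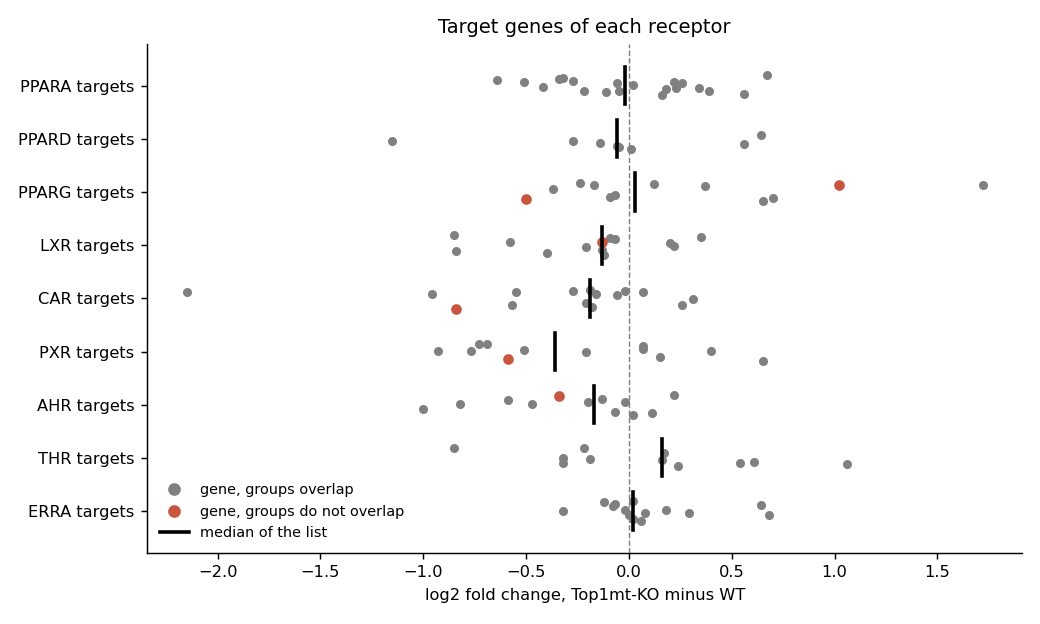
Log2 fold change, Top1mt-KO minus WT (x axis), of every tested target gene in the 9 receptor lists (rows), 1 point per gene, with the median of each list as a black bar. The medians lie between -0.36 for the PXR targets and 0.16 for the thyroid hormone (THR) targets with all libraries (-0.043 for PXR without KO replicate 3 and -0.147 for THR without WT replicate 1), and the red points, genes whose groups do not overlap, include Lpl at 1.02 and Por at -0.84; the red point in the LXR row is Nr1h3 itself.

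Receptor and target levels were also compared across the 6 libraries. For 9 receptors the log2 value was related to the mean centred log2 value of its targets, and none of the 9 relations had an adjusted p under 0.05 by the exact permutation test of pairings, with Benjamini-Hochberg adjustment over the 9. The strongest was negative, between Thrb and its targets (Pearson r = -0.89, permutation p = 0.0333, adjusted 0.30; Spearman rho = -0.60, permutation p = 0.242, adjusted 0.726). It rested on KO replicates 1 and 2, without which r was -0.14. Nr1i2 had r = 0.66 (permutation p = 0.136, adjusted 0.612) and rho = 0.83 (permutation p = 0.0583, adjusted 0.525), and r = 0.69 without KO replicate 3 and WT replicate 3. Ahr had r = 0.53 (permutation p = 0.283, adjusted 0.686) and rho = 0.60 (permutation p = 0.242, adjusted 0.726), with r = 0.34 without KO replicate 1 and WT replicate 1. With quantile normalization r was 0.71 for Nr1i2 and 0.55 for Ahr. It then fell to 0.28 for Nr1i2 without KO replicates 2 and 3, and to -0.08 for Ahr without WT replicates 1 and 2. For the 2 receptors with the clearest separation between genotypes, r was 0.28 (Ppara, permutation p = 0.631, adjusted 0.686; rho = 0.26, permutation p = 0.658) and -0.26 (Esrra, permutation p = 0.60, adjusted 0.686; rho = -0.43, permutation p = 0.419), and without their 2 most distant libraries r was 0.33 and -0.83. The other 4 receptors, Ppard, Pparg, Nr1h3 and Nr1i3, had r of -0.19, 0.22, 0.42 and 0.34 and rho of 0.09, 0.03, 0.37 and 0.31, with adjusted permutation p for r of 0.686 each. Without their 2 most distant libraries r was -0.19, -0.55, 0.67 and 0.99, the last over 4 libraries, and the sign for Pparg thus turned.

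**Figure D5:**
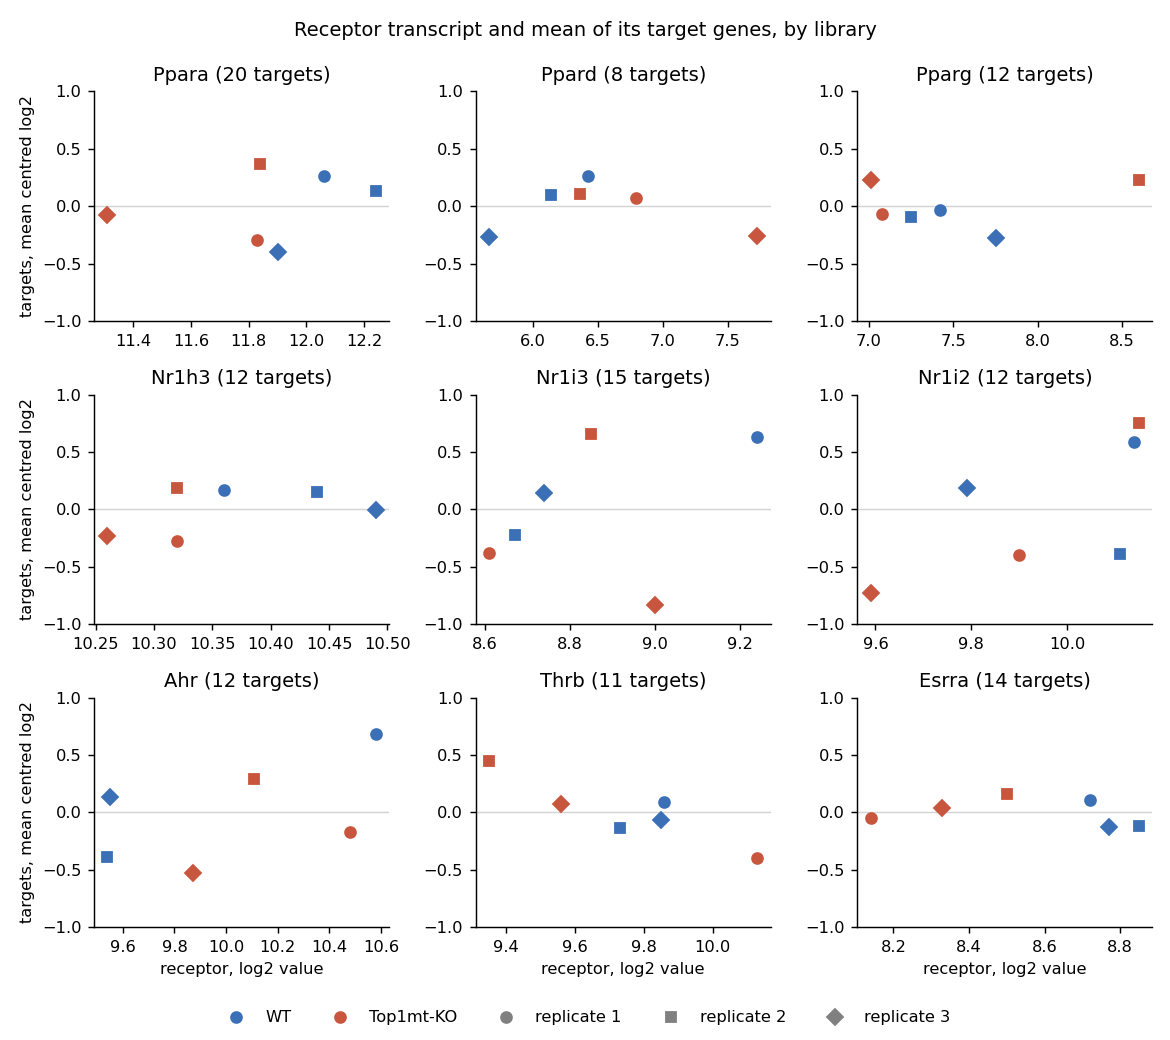
Mean centred log2 value of the target genes (y axis) against the log2 value of the receptor transcript (x axis, its own scale in each panel) for 9 receptors, with 1 point per library, color for genotype and shape for replicate number. The Nr1i3 and Nr1i2 panels show the widest spread of targets, from -0.83 to 0.66 and from -0.73 to 0.75. The fall of the points in the Thrb panel rests on KO replicates 1 and 2, without which r was -0.14.

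Partners and coregulators of the receptors differed little. Of 27 genes tested 12 were lower and 15 higher in KO, with a median of 0.00 (-0.022 to 0.073 with single libraries left out) and 0 at an unadjusted p under 0.05. Ncoa1, a coactivator of the p160 family, was 9.10, 9.19 and 9.31 in WT against 9.39, 9.54 and 9.36 in KO, without overlap and higher in KO (log2 fold change 0.23). Ppargc1a, which encodes the PGC-1 alpha coactivator of Esrra and Ppara, was 8.42, 8.26 and 8.17 in WT against 8.44, 8.30 and 7.30 in KO. KO replicate 3 alone lay apart, and the log2 fold change of -0.26 became 0.09 without it. In the same library Ppara was lowest and Ppard highest.

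Of 40 other nuclear receptors 39 had a row and 36 were tested, with 20 lower and 16 higher in KO and a median of -0.06 (-0.158 without KO replicate 2 to -0.002 without WT replicate 2). Nr1d2, a clock repressor, was 11.36 to 11.81 in WT against 11.33, 11.35 and 9.64 in KO, and its log2 fold change was -0.85, or -0.29 without KO replicate 3. Nr1h4, the bile acid receptor FXR, had a log2 fold change of 0.05 with a standard error of 0.20, and -0.14 without KO replicate 2.

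Markers of other cell types were set beside these results. Bile duct markers had the median farthest from 0. Of 7, 5 were lower and 2 higher in KO with a median of -1.22, Krt19 was 6.11, 4.75 and 6.93 in WT against 2.86, 4.38 and 2.5 in KO without overlap, and the mean centred log2 value of the list was 0.56, 0.08 and 1.16 in WT against -0.69, -0.42 and -0.69 in KO. Summed on the linear scale, where the abundant Spp1 counts most, the list overlapped, at a log2 of 11.93 to 12.78 in WT and 11.78 to 12.62 in KO. Of 9 stellate cell markers 8 were lower in KO with a median of -0.43, but the mean centred values overlapped (-0.29 to 0.86 in WT, -0.91 to 0.40 in KO), as did the log2 of their sum (14.05 to 15.05 in WT, 13.92 to 14.52 in KO). Endothelial markers had 6 of 7 higher with a median of 0.05, and the log2 of their sum was 12.82 to 13.06 in WT and 12.91 to 13.22 in KO. For hepatocyte markers, of which 9 of 10 had a row, 3 were lower and 6 higher and the median was 0.02. T and NK cell markers had a median of -0.14 and B cell markers -0.01, and the log2 of their sums overlapped between genotypes. The part of these cell types in the levels of Esrra, Ppara and Nr1h3 was not tested.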

How the data were processed

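RNA from 3 WT and 3 Top1mt-KO liver tumors was measured, with genotype and replicate number taken from sample titles. The deposited table gives, for each gene symbol, a log2 value from the authors. The authors had trimmed reads with Trimmomatic 0.36, kept uniquely mapped reads, counted them with featureCounts and used DESeq2. The paper names BWA and a genome called Mm 8, whereas the submitters' processing notes name STAR 2.5.1 and GRCm38. The log2 transform is not named. Its values run from -2.24 to 22.0 and keep no read totals, so that depth is unknown and no count model was run. Libraries correlated at 0.987 to 0.991 and 0 pairs were identical. There were 3 unnamed columns with leftover cells, which were not used.

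KO was set against WT in R 4.3.3 by limma 3.58.1 (lmFit, eBayes with trend, Benjamini-Hochberg over 22677 genes, threshold 0.05). The procedure was run on simulated data in which every shift added was larger than any member's difference. Its power for differences of the members' size was not tested. Exact permutation tests (20 regroupings, two-sided) and correlations used scipy 1.17.1. The paper describes the tumors as independent. Whether each came from its own mouse is not given in the sources used here, and p-values measure the spread between these tumors.

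The members and the gene lists were chosen with earlier results of these data known. Named genes are the members and, for each list, a set prototype and the 2 genes with the smallest unadjusted p; Lpl, Por, Krt19 and other markers follow that rule, and Cyp2c37 was added after its value was seen. Alternatives were no trend, quantile normalization, other filters, the replicate number as a block and each library left out. Exon lengths came from GENCODE M21 and upstream sequences from RefSeq, both on GRCm38. Results for some genes of the partner and other nuclear receptor lists are not reported here.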

Additional observations from a re-analysis of the deposited data

How the results depend on the processing

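No member and no gene of the target and partner lists had an adjusted p under 0.05 by limma under any alternative run, and the smallest adjusted p of a member was 0.791. Over all genes the count was 0 except for 4 without a filter on low values, and it ran from 0 to 1 with single libraries left out (the 1 being Prom1, without KO replicate 1). Members lower in KO without overlap numbered 3 to 5 with single libraries left out (5 without KO replicate 1, which adds Rxra and Thrb), where 8.54% to 11.8% of all genes did so (11.8% without KO replicate 1). With quantile normalization there were 4, a setting for which the share over all genes was not computed. Esrra kept an unadjusted p under 0.05 under all 11 alternative fits, and Ppard under 4 of them. The sign turned for 4 members with single libraries left out, over ranges of -0.426 to 0.369 for Pparg (also -0.019), -0.27 to 0.011 for Nr1i2, -0.169 to 0.112 for Nr1i3 (also 0.039) and -0.357 to 0.032 for Thrb. The median of the target lists also turned with single libraries left out for all but the LXR and PXR lists. The relation of Pparg to its targets turned to r = -0.55 without the 2 most distant libraries. With quantile normalization that of Ahr also turned, to r = -0.08 without WT replicates 1 and 2. The replicate numbers did not pair the samples, since deviations of same-numbered libraries correlated at -0.123, -0.0759 and 0.052. With the replicate number as a block 0 genes passed and 912 had an unadjusted p under 0.05, against 985 without it. The values keep no read totals, so what depth limits could not be judged.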
